A study of Mus musculus with 209 samples.

Results

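Flrt3 and Lpar5 are 2 of the 55011 genes counted in 209 RNA sequencing libraries of sorted mouse immune cells. In peritoneal macrophages and Ly6C+ monocytes they lie near opposite ends of the response to the inflammatory cytokine TNFa. They were chosen by symbol because earlier results of these libraries placed Flrt3 among the most raised and Lpar5 among the most lowered genes in myeloid cells, so their myeloid values are given as a description without a test. All mice were C57BL/6J animals aged 5 to 8 weeks with no engineered allele named, and each library came from about 1000 cells sorted by flow cytometry. In the screen, 183 libraries of 14 cell types were made 2 h after an intravenous injection of 5 µg TNFa, IL1b or IL6 in 120 µL of PBS, or of PBS alone. From the peritoneal cavity came macrophages (MFpc) and mast cells (MC). The splenic myeloid types were macrophages of the red pulp (MFrp), Ly6C+ monocytes (Mo.6C+), granulocytes of the neutrophil kind (GN), and CD8+ (DC.8+) and plasmacytoid (pDC) dendritic cells. The lymphoid types, 7 in number, were natural killer cells (NK), T cells carrying the gamma-delta receptor (Tgd), regulatory (Treg), CD4 (T.4) and CD8 (T.8) T cells, and B cells of the marginal zone (MZB) and the follicle (B.fo). With PBS there were 4 or 5 libraries a type, and with a cytokine 2 or 3; IL1b was not analysed in pDC. A time course of 20 libraries followed MFpc and Mo.6C+ at 2, 4, 8 and 24 h after TNFa, with PBS at 24 h, in 2 libraries a group. The last 6 libraries were Mo.6C+ after 1 ng of LPS, a bacterial endotoxin, or from control mice, 3 each, at a time the labels do not give. Nothing in the labels ties a library to a mouse of its own, so the errors cover the spread between these libraries, which may be technical. Library totals ran from 1094567 to 9291121 counts.

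Flrt3 encodes a membrane protein with leucine-rich repeats and a fibronectin domain that binds latrophilins and UNC5 receptors on neighbouring cells and is best known from the guidance and adhesion of nerve cells. Lpar5 encodes a G protein-coupled receptor for lysophosphatidic acid (LPA), a signalling lipid, and is known from lymphocytes, microglia and macrophages. LPA is made outside cells mainly by autotaxin, the product of Enpp2, and is broken down by the lipid phosphate phosphatases encoded by the Plpp genes. LPA receptors signal through G proteins that act, among others, on the small GTPase RhoA.

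In the GENCODE vM21 annotation of GRCm38, Flrt3 (ENSMUSG00000051379) is a protein-coding gene on the minus strand at chr2:140650914-140671469. It lies wholly inside Macrod2, which runs on the plus strand at chr2:140395309-142392966, and 0 of the 4865 exonic bases of Flrt3 are shared with exons of Macrod2. Lpar5 (ENSMUSG00000067714) is a protein-coding gene on the plus strand at chr6:125067920-125082472. A short locus without a known protein, 2010008C14Rik, begins 964 bases past the end of Lpar5 on the same strand.

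The 250 bases in front of the annotated starts, from RefSeq on GRCm38.p6, are shown because the levels of these genes moved in opposite directions within 2 h. Lpar5 has 2 annotated starts. Each sequence reads 5′ to 3′ on the strand of the gene, and capitals mark the 10 bases next to the start.
Flrt3, chr2:140671477-140671726, minus strand: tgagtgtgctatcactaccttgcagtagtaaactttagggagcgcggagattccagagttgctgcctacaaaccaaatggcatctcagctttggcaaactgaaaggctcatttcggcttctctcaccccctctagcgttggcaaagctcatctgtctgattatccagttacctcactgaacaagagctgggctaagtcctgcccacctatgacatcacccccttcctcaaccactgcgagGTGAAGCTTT
Lpar5, first start, chr6:125067670-125067919, plus strand: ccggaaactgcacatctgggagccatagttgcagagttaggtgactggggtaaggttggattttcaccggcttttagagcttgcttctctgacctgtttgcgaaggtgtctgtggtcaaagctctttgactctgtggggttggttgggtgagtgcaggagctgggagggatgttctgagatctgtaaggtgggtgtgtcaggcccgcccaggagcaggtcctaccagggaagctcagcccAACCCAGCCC
Lpar5, second start, chr6:125071085-125071334, plus strand: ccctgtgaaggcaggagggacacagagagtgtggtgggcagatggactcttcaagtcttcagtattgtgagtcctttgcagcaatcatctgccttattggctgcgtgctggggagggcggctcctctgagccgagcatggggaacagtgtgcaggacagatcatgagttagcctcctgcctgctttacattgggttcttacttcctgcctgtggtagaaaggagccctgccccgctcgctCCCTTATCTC

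Windows of 300 bases, from 250 before to 50 after each start, were searched on both strands for the AP-1 motif TGANTCA, the STAT motif TTCNNNGAA, the cyclic AMP response element TGACGTCA, the PU.1 motif GAGGAAGT and the NF-kB consensus. The 3 windows of Flrt3 and Lpar5 held 0 matches to these 5 motifs. Among all 32851 RefSeq windows of this length, 7.81% held the AP-1 motif, 8.3% the STAT motif, 1.79% the cyclic AMP response element, 3.2% the PU.1 motif and 4.51% the NF-kB consensus. These letters are a description of the windows and say nothing of where a factor binds.

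Flrt3 was at or near 0 counts in every cell type of PBS-injected mice and stood clear of PBS in MFpc and Mo.6C+ after TNFa and after IL1b. Levels are given as CPM, reads per 1000000 reads of the TMM-scaled library, which compare a gene between libraries of a fit and not 2 genes with each other. In MFpc, Flrt3 had 142, 187 and 163 CPM with TNFa and 16.7, 7.9 and 9.28 CPM with IL1b. With IL6 it had 0.387, 0.12 and 0.15 CPM, and 4 of the 5 PBS libraries had no count while the other had 0.28 CPM. Every TNFa library thus lay above every IL1b library, and those above every IL6 and PBS library. The PBS libraries held 2 counts in all, which makes the ratio to PBS imprecise. It was 2959-fold for TNFa, with an exact 95% counting interval of 818 to 24448, and 203-fold for IL1b, with an interval of 55.5 to 1689. Both rest on PBS replicate 5, without which no PBS count is left and the fitted log2 fold change is 13.09 for TNFa and 9.23 for IL1b, in place of 11.11 and 7.25. Fewer cells of a type and less RNA per cell cannot be told apart in such pooled libraries.

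In Mo.6C+, Flrt3 had 42.9, 57.2 and 45.8 CPM with TNFa and 33.0, 18.8 and 18.1 CPM with IL1b, and no count in any of the 3 IL6 or 5 PBS libraries. With the PBS group set to a floor of 3 counts over its 5 libraries, the level was at least 535-fold higher with TNFa and at least 246-fold higher with IL1b. TNFa libraries again lay above IL1b libraries without overlap. Among fitted changes with TNFa, which for a gene this low with PBS depend on the prior count of the fit, Flrt3 had rank 1 of 12079 genes in MFpc. Its log2 fold change was 11.11, and Acod1 came next at 10.19. The standard error (SE) of 0.36 from the fit does not cover the counting error of so few PBS reads. In Mo.6C+, Flrt3 had rank 2 of 12573, between Cxcl2 and Ccl22. With TNFa, 26.6% of all genes tested in MFpc and 24.3% of those in Mo.6C+ were raised at an adjusted p under 0.05 in edgeR, and with IL1b 20.7% and 19.4% were.

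In the other 12 cell types no library had more than 22 counts of Flrt3, and cytokine and PBS libraries overlapped wherever both could be compared. In MFrp, a macrophage type of the spleen, TNFa libraries held 21, 0 and 1 counts and PBS libraries 0, 2, 0, 0 and 0 counts. In DC.8+, IL1b libraries held 0 and 22 counts, IL6 libraries 19, 3 and 0, and TNFa libraries 0, 0 and 6, while all 4 PBS libraries held none. A single library carried most of the counts in each of these groups. In GN, the neutrophils, TNFa libraries held 8, 1 and 0 counts and PBS libraries 0, 7, 3, 0 and 0 counts. Flrt3 passed the filter on low counts in the screen only in MFpc, Mo.6C+ and DC.8+, so it was tested in no lymphoid type, and a difference there was not detectable at this depth.

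**Figure D1:**
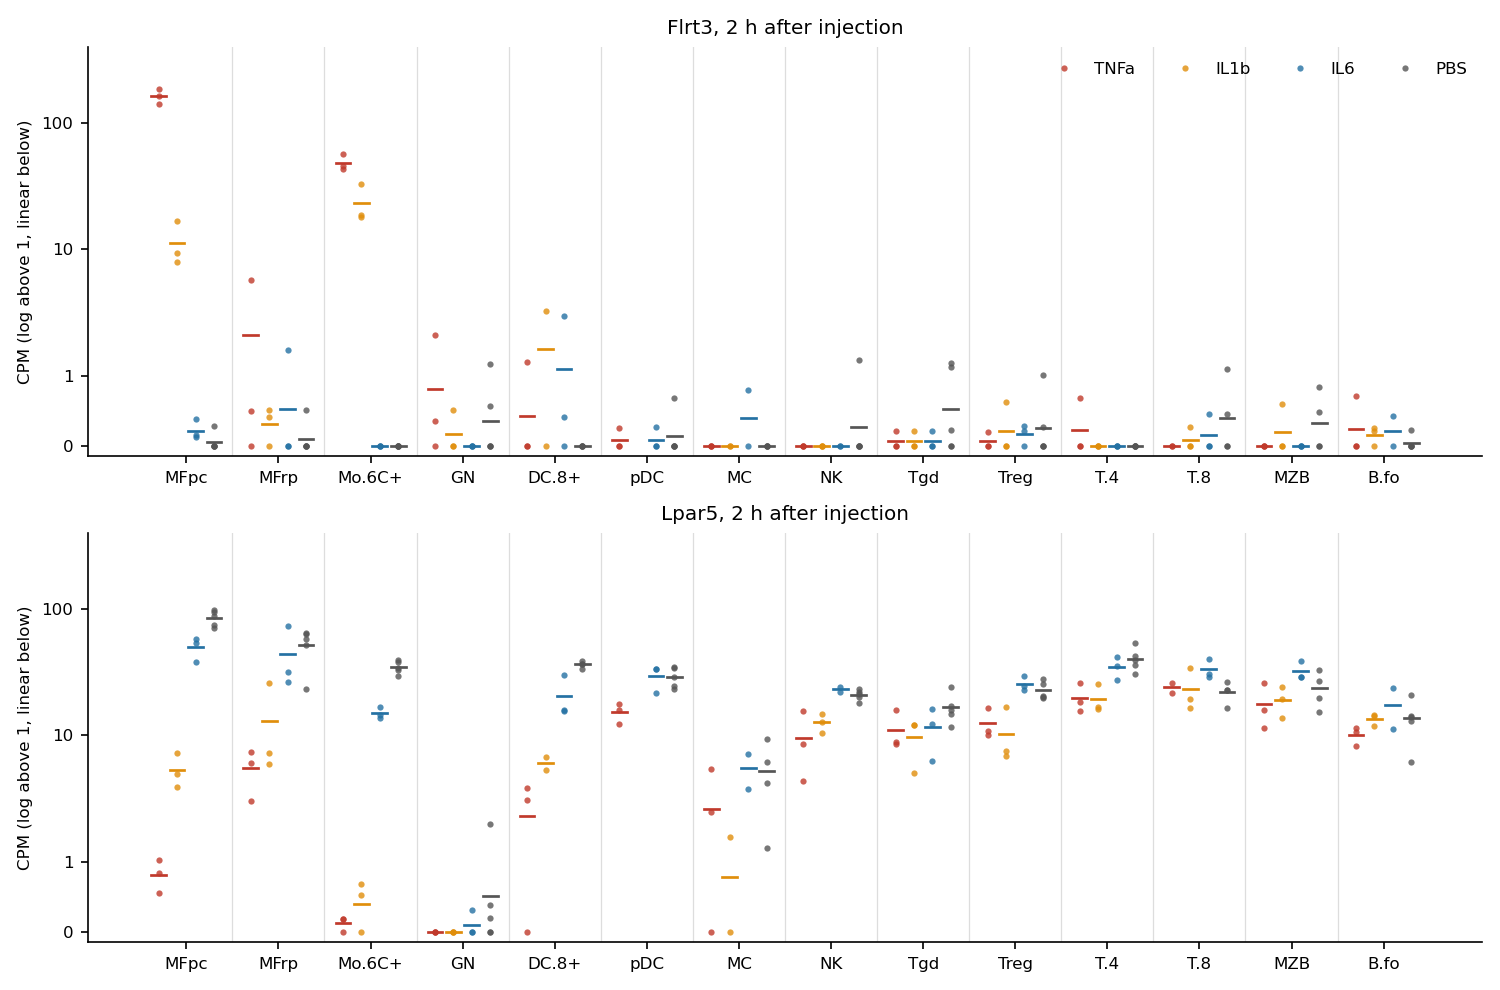
CPM of Flrt3 (top) and Lpar5 (bottom) in each screen library by cell type, 2 h after TNFa, IL1b, IL6 or PBS, in that order from left to right. Points are libraries, short lines are group means, and the axis is logarithmic above 1 CPM and linear below. Flrt3 stands far above 0 in MFpc and Mo.6C+ with TNFa and IL1b, and in these 4 groups every Lpar5 library lies below every PBS library of its type.

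Lpar5 was read in all PBS groups, most in macrophages and least in neutrophils. Over the PBS libraries scaled together, it had 121.5 ± 17.0 CPM in MFpc (SD, n = 5), and these libraries did not overlap those of the next type, MFrp, at 56.6 ± 18.6 CPM (n = 5). Mo.6C+ had 42.4 ± 5.42 CPM (n = 5), DC.8+ 41.7 ± 2.85 CPM (n = 4), T.4 34.5 ± 7.59 CPM (n = 5) and pDC 28.5 ± 5.27 CPM (n = 5). From MFrp downward, each type overlapped its next neighbour, so the order of neighbours is not resolved. MZB had 20.9 ± 6.88 CPM (n = 4), Treg 19.3 ± 3.22 CPM (n = 5), T.8 19.0 ± 3.63 CPM (n = 4), NK 18.9 ± 1.63 CPM (n = 5), Tgd 13.7 ± 3.80 CPM (n = 5) and B.fo 12.1 ± 4.73 CPM (n = 5). MC had 5.89 ± 3.88 CPM (n = 4) and GN 1.06 ± 1.77 CPM (n = 5), the lowest mean. With scaling by total counts alone the MFpc level was 89.9 CPM and remained the highest of the 14.

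In MFpc, the type with most Lpar5, its level was lower with each cytokine, and lowest with TNFa. It had 1.03, 0.84 and 0.555 CPM with TNFa and 3.91, 7.21 and 4.97 CPM with IL1b. With IL6 it had 58.1, 38.0 and 54.3 CPM, against 98.9, 74.3, 94.2, 70.3 and 88.3 CPM with PBS. The 4 groups did not overlap. The log2 fold change against PBS was -6.68 ± 0.28 (SE) with TNFa, -3.99 ± 0.21 with IL1b and -0.77 ± 0.16 with IL6. The SE with TNFa can be smaller than the counting error, because few reads were left. On a linear scale the TNFa level was 102-fold lower. Of all genes tested in MFpc, 26.7% were lowered with TNFa, 16.6% with IL1b and 6.17% with IL6. Lpar5 had rank 10 among the lowered fold changes with TNFa, between Rgs2 at -6.70 and Hsf3 at -6.59.

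In Mo.6C+, Lpar5 was almost lost with TNFa and IL1b. It had 1, 1 and 0 counts with TNFa and 3, 3 and 0 counts with IL1b, against 253, 243, 219, 162 and 281 counts with PBS. With IL6 it had 16.7, 14.6 and 13.7 CPM, against 38.4, 34.3, 32.9, 29.3 and 39.9 CPM with PBS. The IL6 libraries lay between the other cytokines and PBS and overlapped neither. The TNFa level was 0.00377 of the PBS level, with an exact 95% counting interval of 0.000456 to 0.0137. The log2 fold change was -6.45 ± 0.46 with IL1b (-5.80 without IL1b replicate 3) and -1.22 ± 0.30 with IL6. The SE with IL1b can likewise be too small at so few counts. TNFa and IL1b libraries overlapped at these counts, so no order between them is resolved in Mo.6C+. The shares of all genes lowered in Mo.6C+ were 24.4% with TNFa, 17.6% with IL1b and 2.09% with IL6.

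In MFrp, Lpar5 had 7.43, 6.1 and 3.01 CPM with TNFa and 7.22, 5.89 and 26.1 CPM with IL1b, against 58.2, 23.3, 63.8, 64.4 and 51.7 CPM with PBS. TNFa libraries lay below all PBS libraries, with a log2 fold change of -3.20 ± 0.58, where 10.1% of genes were lowered. An IL1b library and a PBS library crossed over, and the log2 fold change was -2.0 ± 0.53, where 4.22% of genes were lowered. Without IL1b replicate 3, the highest of them, it was -3.05. The median log2 fold change of all genes in MFrp with TNFa was -0.14, against which these values are to be read. With IL6, MFrp libraries spread from 26.3 to 73.7 CPM and overlapped PBS.

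In DC.8+, dendritic cells that present antigen, Lpar5 had 0, 3.07 and 3.86 CPM with TNFa and 6.73 and 5.31 CPM with IL1b. With IL6 it had 30.1, 15.9 and 15.6 CPM, against 33.3, 37.0, 39.2 and 36.9 CPM with PBS. All 3 cytokine groups lay below PBS, by log2 fold changes of -3.94 ± 0.61 with TNFa, -2.60 ± 0.65 with IL1b and -0.83 ± 0.50 with IL6. The share of genes lowered in DC.8+ was 7.48% with TNFa, 1.44% with IL1b and 0% with IL6. In pDC, which produce type I interferon, Lpar5 had 16.0, 12.3 and 17.8 CPM with TNFa, against 29.2, 23.1, 34.9, 34.3 and 24.6 CPM with PBS. The groups did not overlap, with a log2 fold change of -0.93 ± 0.24, where 7.18% of genes were lowered, and pDC libraries with IL6 overlapped PBS at a log2 fold change of 0.01 ± 0.22. In MC, every cytokine group overlapped PBS at levels under 10 CPM. In GN, no library held more than 13 counts, and Lpar5 did not pass the filter.

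**Figure D2:**
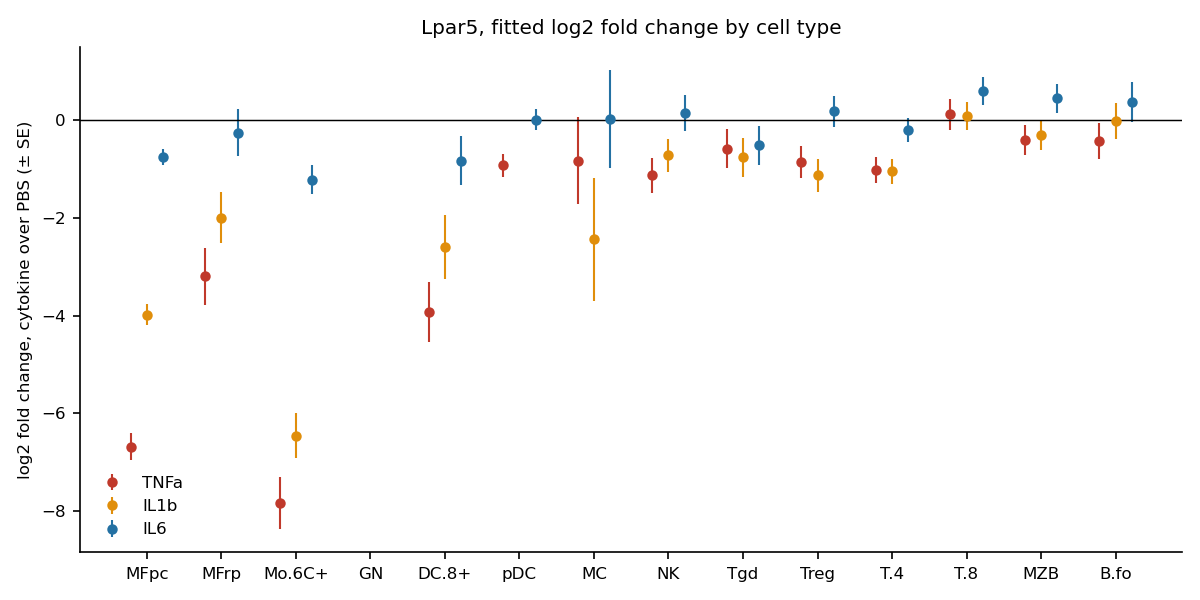
Fitted log2 fold change of Lpar5, cytokine over PBS, with its standard error, in 13 cell types; GN is empty because Lpar5 did not pass the filter there. The values reach -7.83 in Mo.6C+ with TNFa and lie between -1.13 and 0.59 in the 7 lymphoid types. Standard errors can be too small where few reads were left.

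Lymphoid types were not used to choose these genes, so Lpar5 was tested there. It fell in T.4 with IL1b and with TNFa and in NK with TNFa. These are 3 of 21 lymphoid comparisons at an adjusted p under 0.05 in edgeR's quasi-likelihood test; at an unadjusted p under 0.05, 6 of 21 passed, all with a lower level. Of all gene tests in these 21 comparisons, 1.27% were lowered at the adjusted and 6.42% at the unadjusted threshold.

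In T.4, Lpar5 had 16.0, 25.5 and 16.6 CPM with IL1b and 18.2, 26.1 and 15.6 CPM with TNFa, against 39.8, 35.8, 53.6, 30.6 and 42.5 CPM with PBS. All 6 cytokine libraries lay below all 5 PBS libraries. The log2 fold change was -1.05 ± 0.26 with IL1b (adjusted p = 0.0135), where 2.6% of genes were lowered. With TNFa it was -1.03 ± 0.26 (adjusted p = 0.0161), where 2.96% of genes were lowered. Both calls were lost when replicate 1 or replicate 3 of the cytokine group was left out, with the adjusted p reaching 0.0955 for IL1b and 0.123 for TNFa by edgeR. They were also lost in a single edgeR fit over all 7 lymphoid types, chosen after the values were seen, with adjusted p = 0.0591 for IL1b and 0.0676 for TNFa.

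In NK, Lpar5 had 4.39, 15.6 and 8.57 CPM with TNFa, against 20.0, 22.2, 18.2, 21.1 and 23.4 CPM with PBS. The groups did not overlap, with a log2 fold change of -1.13 ± 0.35 (adjusted p = 0.0348), where 7.93% of genes were lowered. Leaving out any of 6 of the 8 libraries (PBS replicates 1, 2, 4 and 5, and TNFa replicates 1 and 3) ended this call in edgeR, with an adjusted p up to 0.16, while leaving out TNFa replicate 2 brought it to 0.00495, at a log2 fold change of -1.73. With IL1b, NK had 12.8, 14.7 and 10.4 CPM, all below PBS, at a log2 fold change of -0.72 ± 0.34 that did not pass (adjusted p = 0.345), where 1.22% of genes were lowered.

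In Treg, Lpar5 had 6.86, 16.7 and 7.46 CPM with IL1b and 16.5, 10.2 and 10.8 CPM with TNFa, against 20.5, 25.6, 19.7, 20.0 and 28.0 CPM with PBS. All cytokine libraries lay below PBS, but neither log2 fold change passed, at -1.13 ± 0.34 with IL1b (adjusted p = 0.0752) and -0.86 ± 0.33 with TNFa (adjusted p = 0.175). DESeq2's Wald test gave an adjusted p of 0.0231 for IL1b in Treg. Without IL1b replicate 2, edgeR called it too, at a log2 fold change of -1.67 (adjusted p = 0.0177). Of all genes in Treg, 1.13% were lowered with IL1b and 2.31% with TNFa. The T.8 libraries gave log2 fold changes near 0, at 0.08 ± 0.28 with IL1b and 0.12 ± 0.32 with TNFa. With IL6, T.8 had 29.1, 30.4 and 40.4 CPM, against 22.7, 26.3, 23.0 and 16.5 CPM with PBS. These groups did not overlap, yet the log2 fold change of 0.59 ± 0.28 did not pass (adjusted p = 0.491), where 0.136% of genes were raised. In Tgd, MZB and B.fo every cytokine group overlapped PBS, with log2 fold changes from -0.77 to 0.44.

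Whether the response of Lpar5 differed between the 7 lymphoid types was tested in the fit over all of them. The adjusted p for dependence on the cell type was 0.436 with IL1b, 0.745 with IL6 and 0.479 with TNFa in edgeR, so no difference between types was shown. The T.4 response minus the T.8 response was -1.13 ± 0.46 on the log2 scale with IL1b (adjusted p = 0.933) and -1.15 ± 0.49 with TNFa (adjusted p = 0.945).

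After TNFa, Flrt3 was highest at the first time read and Lpar5 lowest, and both were near the PBS level in MFpc at 24 h. In MFpc, Flrt3 had 220 and 218 CPM at 2 h, 100 and 112 CPM at 4 h, 2.75 and 3.9 CPM at 8 h and 0.283 and 0 CPM at 24 h, against 0.142 and 0.269 CPM with PBS. Each time up to 8 h lay apart from the others and from PBS, though groups of 2 libraries can lie apart by chance. By edgeR calls, 18.1% of genes were raised at 2 h, 18.7% at 4 h and 15.6% at 8 h. Over the 3 counts of the PBS libraries, the ratio was 1056-fold at 2 h (exact 95% counting interval 361 to 5122), 511-fold at 4 h (174 to 2481) and 15.6-fold at 8 h (5.0 to 78.9). In Mo.6C+, Flrt3 had 71.6 and 39.9 CPM at 2 h and 7.0 and 6.9 CPM at 4 h, with no count at 8 h or with PBS and 2 counts in 1 library at 24 h. Against PBS set to 3 counts over its libraries, the level was at least 189-fold higher at 2 h and at least 24.4-fold higher at 4 h, where 19.7% and 15.9% of genes were raised. The Flrt3 mean at 2 and 4 h was 219 and 106 CPM in MFpc, and 55.7 and 6.95 CPM in Mo.6C+.

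Lpar5 moved back toward the PBS level over the same hours. In MFpc it had 0.187 and 0.22 CPM at 2 h, 1.69 and 3.29 CPM at 4 h, 23.9 and 12.8 CPM at 8 h and 86.0 and 86.8 CPM at 24 h, against 84.8 and 64.7 CPM with PBS. At 2 h there were 2 counts in all, a ratio to PBS of 0.00271 (exact 95% counting interval 0.000328 to 0.00983), where 18.1% of genes were lowered. The log2 fold change against PBS was -4.89 ± 0.36 at 4 h, -2.01 ± 0.29 at 8 h and 0.21 ± 0.27 at 24 h, where 16.9% and 12.8% of genes were lowered at 4 and 8 h and 3.81% raised at 24 h. In Mo.6C+ it had 1.26 and 0 CPM at 2 h, 0.849 and 1.84 CPM at 4 h, 12.3 and 5.66 CPM at 8 h and 16.5 and 18.4 CPM at 24 h, against 40.5 and 47.6 CPM with PBS. The fitted log2 fold change at 2 h was -10.91 without TNFa replicate 1 and -5.06 without TNFa replicate 2. The shares of genes lowered in Mo.6C+ were 20.6% at 2 h, 16.6% at 4 h and 10.5% at 8 h. The libraries at 2 and 4 h overlapped, and those at 24 h still lay below PBS, at a log2 fold change of -1.34 ± 0.49, where 1.72% of genes were lowered. PBS was sampled at 24 h only, so a change over the day in untreated cells and the effect of TNFa at the earlier times cannot be told apart.

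LPS gave the same directions in Mo.6C+. Flrt3 had 3.12, 10.6 and 2.84 CPM with LPS, against 0, 1.13 and 0 CPM in controls, at a log2 fold change of 4.17 ± 1.23. Lpar5 had 0.959, 0.471 and 0 CPM with LPS, against 29.8, 25.5 and 28.2 CPM in controls, at a log2 fold change of -5.83 ± 0.65, which was -6.75 without LPS replicate 1 and -5.23 without LPS replicate 3. Neither gene's groups overlapped, where 10.2% of genes were raised and 8.38% lowered. The Flrt3 level with LPS was set by 13, 45 and 13 counts, so a single library carried most of it. Without control replicate 2, which held all 4 control counts, the log2 fold change was 7.85.

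**Figure D3:**
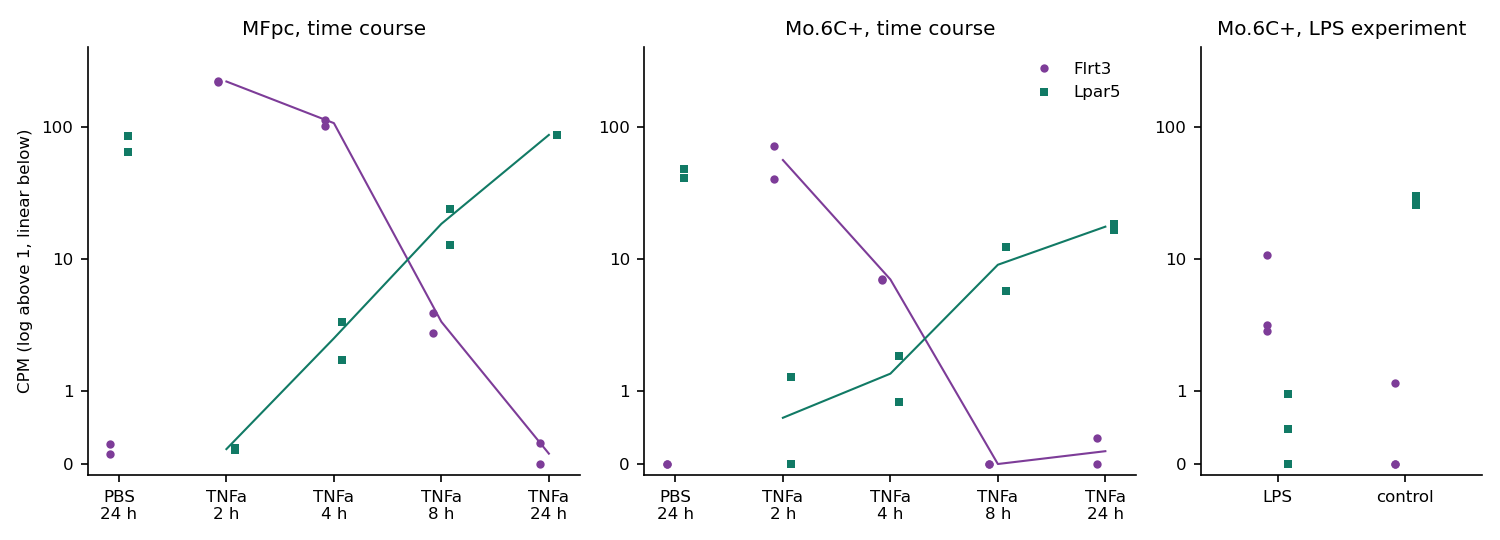
CPM of Flrt3 (circles) and Lpar5 (squares) per library in MFpc and Mo.6C+ after TNFa, with PBS at the left, and in Mo.6C+ with LPS beside control; lines join the means, and the axis is logarithmic above 1 CPM and linear below. Flrt3 is highest at 2 h in both cell types, and the Lpar5 means are lowest at 2 h and higher at each later time.

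The sorted cells carried the markers of their labels: the mean log2 CPM of each type's marker list was higher in all of its screen libraries than in any screen library of another type, narrowly for B.fo over MZB. Cells of another type in the sort were looked for in MFpc and Mo.6C+ beside these values. In MFpc, the summed level of 8 neutrophil markers was 1050 to 1079 CPM with TNFa and 573 to 757 CPM with IL1b, against 326 to 502 CPM with PBS. In Mo.6C+, it was 1414 to 1921 CPM with TNFa and 1195 to 1323 CPM with IL1b, against 441 to 522 CPM with PBS. GN libraries themselves held at most 8 counts of Flrt3. The red pulp macrophage list in Mo.6C+ was 8906 to 11806 CPM with TNFa and 4972 to 6599 CPM with IL1b, against 1085 to 1562 CPM with PBS, and MFrp libraries held at most 21 counts of Flrt3. The mast cell list was 325 to 395 CPM with TNFa in MFpc, against 173 to 216 CPM with PBS, and 149 to 243 CPM with TNFa in Mo.6C+, against 4.93 to 14.0 CPM with PBS. Of its 8 genes, 3 to 6 were at 0 in each MFpc library with TNFa and 4 to 5 in each Mo.6C+ library with TNFa, and MC libraries held at most 1 count of Flrt3. Mesothelial and stromal markers, a list added after the values were seen, summed to at most 4.17 CPM in MFpc with TNFa and at most 4.4 CPM with PBS, where Flrt3 had 142 to 187 CPM with TNFa. Endothelial markers in Mo.6C+ summed to 34.0 to 151 CPM with TNFa, against 3.01 to 14.1 CPM with PBS, and Kdr alone reached 149.8 CPM. Kdr reached 9.72 CPM with PBS. The next highest gene of this list with TNFa, Egfl7, reached 3.61 CPM, against 3.56 CPM with PBS. Plvap reached 1.55 CPM with TNFa, against 2.65 CPM with PBS, so the higher sum came from Kdr and not from the list as a whole. The part of these lists in the levels of Flrt3 and Lpar5 was not tested.

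Macrod2, the gene on the other strand around Flrt3, was read at low levels in Mo.6C+, and its levels in MFpc are not given here. It had 0.572, 0.95 and 1.75 CPM with TNFa in Mo.6C+, against 0.607, 0.424, 0.751, 0.362 and 1.28 CPM with PBS, which did not pass in edgeR (log2 fold change 0.64 ± 0.63, adjusted p = 0.433). With IL1b, Macrod2 rose in Mo.6C+ to 6.33, 2.84 and 5.53 CPM (log2 fold change 2.79 ± 0.59, adjusted p = 0.00133). Reads were counted with a strand setting that the sources used here do not give, so reads within Macrod2 introns and Flrt3 cannot be told apart.

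Genes whose level followed the same pattern were ranked by Pearson's r of log2 CPM among 13390 genes reaching 10 CPM in a group, over the 55 screen group means and over the 56 screen libraries of MFpc, MFrp, Mo.6C+ and GN. These points share libraries and cell types, so r is a description. Closest to Flrt3 over the groups were Has1 (0.87), a hyaluronan synthase, Timp1 (0.85), an inhibitor of metalloproteinases, Gm15056, Gm12840 and Ambp (0.80). Over the libraries they were Ch25h (0.86), which makes 25-hydroxycholesterol, Il6 (0.84), Etf1, Usp16 and Phldb1 (0.80). Closest to Lpar5 was 2010008C14Rik, the locus just past its end, at 0.94 over the groups and 0.95 over the libraries. Fbxo21 (0.84), Cars2, Jmjd8 and Lrrc45 (0.82) followed over the groups, and Kctd12b (0.90), Sesn1, Plxna4os1 and Cul9 (0.87) over the libraries. Reads of a longer Lpar5 transcript and reads of 2010008C14Rik cannot be told apart from these counts. Flrt3 and Lpar5 themselves had r = -0.44 over the groups and -0.43 over the libraries.

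Among the other receptors of LPA, Lpar1 was raised and Lpar6 lowered in several myeloid comparisons. Over the 50 comparisons with PBS or control, 12.3% of all gene tests were called by edgeR, 6.51% raised and 5.74% lowered. Against that background, the list of LPA receptors and their coupling proteins had 10 of 11 genes tested, with 31 raised and 41 lowered calls in 406 tests, or 17.7%. In the 29 myeloid comparisons it had 31 raised and 35 lowered calls in 235 tests, or 28.1%, where 19.5% of all gene tests were called, 10.3% raised and 9.22% lowered. Counts of calls below are over all 50 comparisons, and 40 of the 121 calls of related genes and Macrod2 were lost in edgeR when 1 of the libraries was left out. A gene low with PBS can pass the filter on low counts only through treated groups where it is high. Lpar1 and Pla1a were such genes in Mo.6C+, so their rates of raised calls, and those of their lists, can be raised by the filter.

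Lpar1, which couples to several G proteins, rose in 12 of the 24 comparisons it was tested in, and 10 of these calls held with each library left out in turn. In MFpc, Lpar1 had 164, 156 and 157 CPM with TNFa and 58.7, 47.2 and 52.5 CPM with IL1b, against 22.7, 19.6, 15.8, 38.7 and 17.2 CPM with PBS. The groups did not overlap, and the log2 fold change was 2.79 ± 0.22 with TNFa (adjusted p = 1.1e-09) and 1.20 ± 0.22 with IL1b (adjusted p = 0.000228). In Mo.6C+, Lpar1 had 13.4, 8.55 and 18.6 CPM with TNFa, against 0.152, 0.848, 0.15, 0.544 and 0 CPM with PBS (log2 fold change 5.24 ± 0.69, and 5.95 without PBS replicate 2). In MFrp, Lpar1 had 82.8, 39.7 and 121 CPM with TNFa, against 0.96, 0, 6.05, 3.25 and 0 CPM with PBS (log2 fold change 5.23 ± 0.85, and 6.25 without PBS replicate 3). It also rose with LPS in Mo.6C+, to 11.2 ± 5.91 CPM, against 0.284 ± 0.491 CPM in controls (SD, n = 3 each). The control level rests on replicate 2: the log2 fold change was 5.63, but 8.87 without that library, and 4.97 and 4.92 without control replicate 1 or 3. In the MFpc time course, Lpar1 means were 231 CPM at 2 h, 155 CPM at 4 h and 59.4 CPM at 8 h after TNFa, against 29.1 CPM with PBS.

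Lpar6, a receptor coupled to G12 and G13 proteins, fell in 11 of 50 comparisons, 8 of them with each library left out in turn. In Mo.6C+, Lpar6 had 16.4, 7.03 and 17.5 CPM with TNFa and 28.7, 36.4 and 41.3 CPM with IL1b, against 101, 123, 130, 114 and 123 CPM with PBS. Both cytokine groups lay below PBS, with log2 fold changes of -3.12 ± 0.29 with TNFa (adjusted p = 1.99e-07) and -1.73 ± 0.26 with IL1b (adjusted p = 6.34e-05). In Tgd, Lpar6 fell to 87.5 ± 12.9 CPM with TNFa and 96.5 ± 9.32 CPM with IL1b (SD, n = 3 each), against 179.6 ± 9.39 CPM with PBS (n = 5). In Tgd, Lpar6 passed the test while Lpar5 did not, at log2 fold changes of -0.59 ± 0.40 with TNFa and -0.77 ± 0.40 with IL1b for Lpar5; the difference between the genes was not tested. Lpar6 fell with TNFa also in MFpc, MFrp, DC.8+ and Treg; the MFrp call was lost without TNFa replicate 2 (adjusted p = 0.0573 in edgeR), and the Treg call without any of 4 libraries, PBS replicates 4 and 5 and TNFa replicates 1 and 3 (adjusted p up to 0.163). Lpar3 rose in DC.8+ with TNFa, to 25.3 ± 5.39 CPM, against 4.87 ± 1.01 CPM with PBS (log2 fold change 2.37 ± 0.56). Lpar2 was tested in 24 comparisons and edgeR called it in none, and Lpar4 did not pass the filter in any.

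Among the coupling proteins, Gna13, the alpha subunit of G13, rose in 11 of 50 comparisons, 8 of them with each library left out in turn. The largest of its log2 fold changes was 2.01 ± 0.18, in MFrp with TNFa, where Gna13 had 288 ± 48.4 CPM, against 71.7 ± 6.14 CPM with PBS (SD, n = 3 and 5). Gna12, the alpha subunit of G12, rose in 0 and fell in 4 of 50, 2 of them with each library left out. These 2 were in MFrp, at log2 fold changes of -1.14 with TNFa and -1.44 with IL1b. Gnaq rose in 2 and fell in 2 of 50, and only 1 of these calls, a rise, held with each library left out. Gna11, an alpha subunit of the Gq family, fell in 11 of 50, 7 of them with each library left out. In GN, Gna11 had 0.67 ± 0.657 CPM with TNFa, against 15.6 ± 3.23 CPM with PBS (log2 fold change -4.46 ± 0.63, with -5.45 without TNFa replicate 1 and -3.86 without TNFa replicate 3). Arhgef1, whose product activates RhoA, fell in 13 comparisons, 8 of them with each library left out. It rose in 1, GN with TNFa, where it had 326 ± 21.4 CPM, against 208 ± 29.3 CPM with PBS. TMM factors, which multiply the library totals, were 0.695 to 0.709 in GN with TNFa, against 1.15 to 1.23 with PBS. This rise depends on that scaling, and a change by total counts was not tested. Rhoa itself rose in 4 comparisons, 2 of them with each library left out, by a log2 fold change of at most 0.84 ± 0.12, in GN with TNFa. The rise of Rhoa in GN depends on the same scaling, and the median log2 fold change of all genes there was -0.21. In MFpc with TNFa, where the other kept rise was 0.26, TMM factors were 0.85 to 0.86, against 1.02 to 1.09 with PBS.

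**Figure D4:**
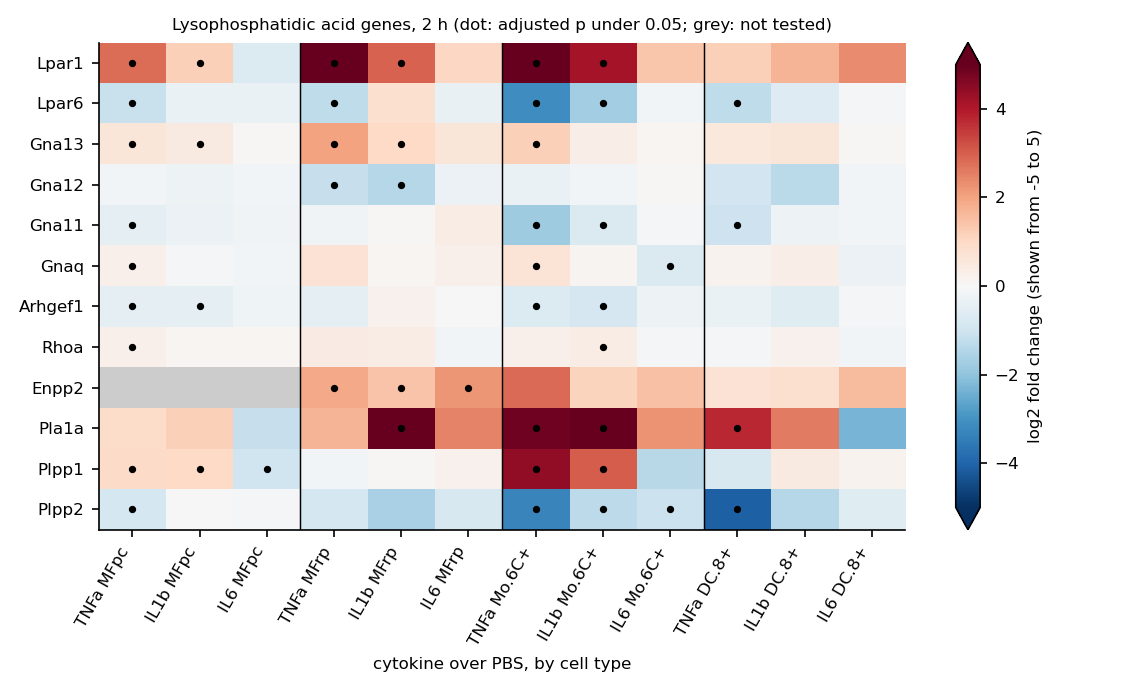
Fitted log2 fold change, cytokine over PBS at 2 h, of 12 genes from the LPA lists (rows). Columns are TNFa, IL1b and IL6 in each of MFpc, MFrp, Mo.6C+ and DC.8+. A dot marks an adjusted p under 0.05 in edgeR and grey a gene not tested. Lpar1 is raised and Lpar6 lowered in MFpc, MFrp and Mo.6C+ with TNFa, and in Mo.6C+ Plpp1 is raised while Plpp2 is lowered.

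The 7 genes listed under LPA synthesis and breakdown had 24 raised and 12 lowered calls in 205 tests, or 17.6%. Pla1a, whose product acts on phosphatidylserine, gave 9 of these raised calls in 30 of the tests. The share of the list without Pla1a was not computed. Of all gene tests, 12.3% were called, 6.51% raised and 5.74% lowered, so the lowered calls of the list were near the share of all genes. In the myeloid comparisons 26.3% of its 133 tests were called, against 19.5% of all gene tests. In the lymphoid comparisons 1.39% of its 72 tests were called, against 2.91%. Plpp1, a phosphatase that degrades LPA, rose in 12 of 33 comparisons, 11 of them with each library left out, and fell in 1. In Mo.6C+, Plpp1 had 39.7, 45.8 and 25.0 CPM with TNFa and 17.2, 15.4 and 9.22 CPM with IL1b, against 2.12, 0.848, 1.2, 2.9 and 1.56 CPM with PBS (log2 fold changes 4.42 ± 0.50 and 3.02 ± 0.50). Its highest mean after TNFa came later than that of Flrt3. In MFpc, Plpp1 means were 20.0 CPM at 2 h, 75.6 CPM at 4 h and 126 CPM at 8 h, against 6.48 CPM with PBS. In Mo.6C+, Plpp1 had 175 and 177 CPM at 4 h, against 0.913 and 0.595 CPM with PBS. The fall was with IL6 in MFpc, to 8.17 ± 0.712 CPM, against 16.2 ± 2.96 CPM with PBS (SD, n = 3 and 5).

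Plpp2, a second phosphatase of this family, fell in 10 of 47 comparisons, 7 of them with each library left out. In Mo.6C+, Plpp2 had 1.91, 2.28 and 2.63 CPM with TNFa, against 22, 13, 21.5, 28.1 and 28.9 CPM with PBS (log2 fold change -3.31 ± 0.35). In DC.8+, Plpp2 had 0.768, 0 and 2.36 CPM with TNFa, against 24.1, 13.6, 21.1 and 12.6 CPM with PBS (log2 fold change -4.07 ± 0.72, and -5.58 without TNFa replicate 3). Pla1a, a phospholipase of phosphatidylserine, rose in 9 of 30 comparisons, 6 of them with each library left out, with the largest log2 fold change in Mo.6C+ with IL1b. There Pla1a had 38.9 ± 16.9 CPM, against 0.169 ± 0.247 CPM with PBS (log2 fold change 7.80 ± 0.71, and 8.69 without PBS replicate 4). Enpp2, which encodes autotaxin, rose in MFrp with all 3 cytokines, to 221 ± 49.7 CPM with TNFa, 161 ± 75.1 CPM with IL1b and 274 ± 92.1 CPM with IL6, against 59.6 ± 9.42 CPM with PBS (SD, n = 3, 3, 3 and 5).

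Of 15 genes for known binding partners and relatives of FLRT proteins, 11 passed the filter in some comparison, with 213 tests, of which 11 were lowered calls and 0 raised calls by edgeR; 5 tests with a higher level in the treated group had an unadjusted p under 0.05, and DESeq2 called 1 raised. Of all gene tests, 11.4% were raised at that unadjusted threshold. The share called was 5.16%, against 12.3% of all gene tests. All of these calls were lowered, and 5.74% of all gene tests were lowered, so the lowered calls were near the share of all genes. Fgfr1, a growth factor receptor that FLRT proteins bind, fell in MFpc with TNFa, to 233 ± 18.3 CPM, against 454 ± 27.4 CPM with PBS (log2 fold change -0.96 ± 0.10; SD, n = 3 and 5). The latrophilin gene Adgrl1 had 4.53 ± 2.07 CPM with TNFa in NK, against 14.8 ± 3.83 CPM with PBS (log2 fold change -1.66 ± 0.45), a call lost without TNFa replicate 3 (adjusted p = 0.0656 in edgeR). Unc5a, an UNC5 receptor gene, had 0.667 ± 0.0133 CPM at 4 h after TNFa in MFpc, against 3.89 ± 0.546 CPM with PBS, a call lost without PBS replicate 1 or either TNFa library (adjusted p up to 0.0737 in edgeR). Tenm3, which encodes a teneurin, fell in pDC with TNFa, to 0.249 ± 0.263 CPM, against 4.38 ± 2.34 CPM with PBS (log2 fold change -4.06, and -5.01 without TNFa replicate 1). In Mo.6C+, Fgfr1 had 9.45 ± 7.12 CPM with TNFa, against 2.21 ± 2.49 CPM with PBS, which overlapped and did not pass in edgeR (adjusted p = 0.0847).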

How the data were processed

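RNA sequencing counts of 209 mouse libraries were used, 183 from the screen, 20 from the time course and 6 from the LPS experiment. The authors deposited raw read counts per gene for 55011 genes, with library totals of 1094567 to 9291121 counts; STAR 2.7.3a, featureCounts and mm10 are named in the submitters' processing notes, and the strand setting is not given in the sources used here. Groups follow the submitters' labels, of which 158 pair a title naming spleen with a peritoneal tissue label; the cell type was taken from the title.

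Each cell type, time course and LPS set was fitted across all its groups with edgeR 4.0.16 (R 4.3.3): filterByExpr, TMM scaling, a quasi-likelihood test and Benjamini-Hochberg adjustment over all genes tested, with a threshold of 0.05. Standard errors were derived from the fitted change and its F statistic. They can be smaller than the counting error where a group holds few counts. CPM values use TMM-scaled library sizes. Shares of genes raised or lowered count edgeR calls. The share of genes whose groups do not overlap was not computed. Log2 CPM values use a prior count of 2. Fitted log2 fold changes do not use it and keep the default prior count of the fit. Ratios against groups with 1 to 3 counts carry exact 95% intervals, which, like floors of 3 counts, cover counting error only. Alternatives were DESeq2 1.42.0, its size factors in edgeR, no filter, a replicate block, a fit of only the 2 groups compared, each library left out and, for levels, scaling by total counts. A fit over the 7 lymphoid types and 2 marker lists (mesothelial and stromal; endothelial) were added after seeing the data.

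The members and lists were chosen with earlier results of these data known. Named are Flrt3, Lpar5, related genes where they pass the test or bear on a limit, and the 5 genes closest in pattern to each. Sequences come from RefSeq, and the scripts were tested on simulated data.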

Additional observations from a re-analysis of the deposited data

Results flagged for a closer look

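Lpar5 libraries with IL6 lay above PBS in T.8 and below PBS in MFpc, DC.8+ and Mo.6C+. A rise in T.8 was not shown, and the difference between these types was not tested. With IL6, every T.8 library lay above every PBS library of its type, at 29.1, 30.4 and 40.4 CPM, against 22.7, 26.3, 23.0 and 16.5 CPM with PBS. Every MFpc, DC.8+ and Mo.6C+ library lay below its own PBS libraries, with log2 fold changes of -0.77 in MFpc, -0.83 in DC.8+ and -1.22 in Mo.6C+. The T.8 log2 fold change of 0.59 ± 0.28 did not pass in edgeR (adjusted p = 0.491).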

How the results depend on the processing

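Values below are log2 fold changes unless named otherwise. The replicate numbers of the titles did not pair the samples: in none of the 17 fits did all same-numbered samples correlate above 0.1 in their deviations from the group means. With the number as a replicate block, Flrt3 in MFpc was 9.23 with IL1b and 13.12 with TNFa, Lpar5 in MC with IL6 was 0.86, and Lpar5 in NK with TNFa was -1.18 (adjusted p = 0.0749 in edgeR). Under the block Lpar5 turned sign, without a call, in T.8 with IL1b (-0.055) and TNFa (-0.042) and in B.fo with IL1b (0.10). In NK with TNFa, Lpar5 was -1.18 without the filter on low counts and -1.12 in a fit of only the 2 groups, and neither was called. In Treg with IL1b it was -1.13 and called by DESeq2. In T.4 it was -1.06 with IL1b and -1.03 with TNFa in the pooled lymphoid fit, both uncalled. DESeq2 gave 11.50 for Flrt3 in MFpc with TNFa. Raised calls of FLRT partners numbered 2 without the filter, 1 with the block, 1 by DESeq2 and 0 to 1 with a library left out. By total counts, Lpar5 with PBS was 89.9 CPM in MFpc, 22.8 CPM in Treg and 21.3 CPM in NK. The cause of these shifts was not tested.

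With each library left out in turn, Flrt3 in MFpc ranged from 6.84 to 9.23 with IL1b and from 10.81 to 13.09 with TNFa, and its lower bound in Mo.6C+ (log2) from 7.59 to 8.13 and from 8.71 to 9.15. In Mo.6C+ Lpar5 ranged from -6.96 to -5.80 with IL1b and from -8.16 to -7.37 with TNFa. Lpar5 with IL1b ranged from -6.25 to -1.71 in MC, from -2.79 to -2.46 in DC.8+, from -3.05 to -1.69 in MFrp, from -1.67 to -0.89 in Treg, from -1.30 to -0.93 in T.4, from -0.28 to 0.27 in T.8 and from -0.21 to 0.20 in B.fo. With IL6 it ranged from -1.22 to -0.67 in DC.8+ and from -0.26 to 0.81 in B.fo. With TNFa it ranged from -1.73 to -0.76 in NK, from -1.25 to -0.88 in T.4 and from -0.014 to 0.26 in T.8.

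In the time course with 2 libraries a group, where a lone sample is assumed to vary like the other groups, Flrt3 in MFpc ranged from 9.56 to 10.41 at 2 h, from 8.5 to 9.35 at 4 h and from 3.49 to 4.34 at 8 h. Its lower bound in Mo.6C+ ranged from 6.50 to 8.01 at 2 h and from 3.55 to 4.63 at 4 h. Lpar5 in MFpc ranged from -8.56 to -8.19, from -5.44 to -4.51, from -2.57 to -1.64 and from 0.044 to 0.42 at 2, 4, 8 and 24 h. In Mo.6C+ it ranged from -10.91 to -5.06, from -5.65 to -4.56 and from -2.94 to -1.82 at 2, 4 and 8 h. With LPS, Flrt3 ranged from 3.27 to 7.85 and Lpar5 from -6.75 to -5.23. Of 121 single calls of related genes and Macrod2, the block ended 16, no filter 14, DESeq2 2 and DESeq2 size factors 1. A fit of only the 2 groups ended 4 calls of the screen. Leaving out 1 library ended 40 of the 121 and 81 held throughout; 18 changed by over 1.5 times in at least 1 such fit.

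Depth limits Flrt3 outside MFpc and Mo.6C+, where no screen library held more than 22 counts, and Lpar5 in MC and GN. Fold changes of Flrt3 against PBS rest on 0 to 4 PBS or control counts and are not resolved beyond their bounds.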
